A study of Homo sapiens with 18 samples.

Results

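The genes described here encode the CDK7 kinase module and the rest of TFIIH, the general transcription factor that carries it. They were chosen by name: CDK7, CCNH and MNAT1 for the kinase module, and ERCC2, ERCC3, GTF2H1, GTF2H2, GTF2H3, GTF2H4 and GTF2H5 for the core. All 10 were listed among the 26249 genes of the deposited tables. Messenger RNA was measured in 18 libraries of cells labelled XG1 and AMO1, which the labels call multiple myeloma lines. In each line 3 libraries came from cells kept for 24 h in DMSO, 3 from cells in 100 nM of YKL-5-124 and 3 from cells in 1000 nM. Every cell had DMSO or compound for the same time, and no untreated group is described here. The labels number the replicates without saying whether they were separate cultures, so p-values measure the spread between these libraries, which may be technical.

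TFIIH acts at the start of transcription by RNA polymerase II and again in nucleotide excision repair of damaged DNA. At a promoter the translocase ERCC3 opens the DNA, and CDK7 then phosphorylates the tail of the polymerase. Bound to cyclin H (CCNH) and the assembly factor MNAT1, CDK7 also phosphorylates the activating loop of the kinases that drive the cell cycle. YKL-5-124 binds CDK7 covalently and blocks the kinase. The values below are RNA levels of the complex's own genes, and they measure neither kinase activity nor protein.

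The promoters of 4 members on which the results turn are printed as 250 bases before to 50 bases after the start listed in RefSeq (GRCh38.p14), 5′ to 3′ on the gene's strand. CDK7 (chr5:69234636-69234935, plus strand) and MNAT1 (chr14:60734511-60734810, plus strand) are shown because their RNA levels followed each other most closely among the members over the 18 libraries. GTF2H3 (chr12:123633579-123633878, plus strand) was lower with compound in both lines. GTF2H5 (chr6:158168100-158168399, plus strand) moved differently in the 2 lines. Capitals mark the E-box CACGTG in CDK7, the ETS word CCGGAAG or its complement in GTF2H3, and the SP word GGGCGG or its complement in GTF2H5. The MNAT1 window held none of the 5 words searched and has no capitals. RefSeq lists 2 starts for CDK7, of which the first is shown.
CDK7: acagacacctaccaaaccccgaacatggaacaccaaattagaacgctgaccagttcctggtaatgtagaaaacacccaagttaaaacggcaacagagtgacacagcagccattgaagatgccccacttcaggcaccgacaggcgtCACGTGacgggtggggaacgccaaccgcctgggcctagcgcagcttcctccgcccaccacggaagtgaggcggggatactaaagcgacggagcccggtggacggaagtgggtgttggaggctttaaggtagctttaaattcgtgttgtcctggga
MNAT1: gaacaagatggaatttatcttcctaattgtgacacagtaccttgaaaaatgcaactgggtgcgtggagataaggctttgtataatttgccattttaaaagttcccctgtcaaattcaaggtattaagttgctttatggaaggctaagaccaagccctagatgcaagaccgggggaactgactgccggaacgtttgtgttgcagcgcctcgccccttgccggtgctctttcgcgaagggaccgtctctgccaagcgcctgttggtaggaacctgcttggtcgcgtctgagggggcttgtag
GTF2H3: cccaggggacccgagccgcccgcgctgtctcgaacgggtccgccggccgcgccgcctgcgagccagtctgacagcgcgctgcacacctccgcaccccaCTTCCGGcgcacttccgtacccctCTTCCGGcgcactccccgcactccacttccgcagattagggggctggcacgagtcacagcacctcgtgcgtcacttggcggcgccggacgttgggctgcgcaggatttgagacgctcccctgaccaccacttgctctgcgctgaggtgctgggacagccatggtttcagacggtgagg
GTF2H5: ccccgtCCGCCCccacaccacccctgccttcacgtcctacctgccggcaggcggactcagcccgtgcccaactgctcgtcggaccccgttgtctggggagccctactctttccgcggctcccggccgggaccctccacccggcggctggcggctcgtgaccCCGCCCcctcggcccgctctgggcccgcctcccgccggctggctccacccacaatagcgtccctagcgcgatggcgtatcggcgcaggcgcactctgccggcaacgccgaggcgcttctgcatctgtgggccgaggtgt

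Besides these 3 words, the CCAAT box (CCAAT) and the TATA box (TATAAA) were searched on both strands of all 10 windows, and none of the 5 contains another. The E-box stood in 2 of the 10 (CDK7 and GTF2H1) and in 7.26% of 35116 human promoter windows of the same length. The ETS word stood in 4 (ERCC3, GTF2H1, GTF2H2 and GTF2H3) and in 10.3% of all windows. The SP word stood in 7 members and in 45.0% of all windows, and the CCAAT box in ERCC2 and GTF2H4 against 34.6%. The TATA box stood in none of the 10 and in 11.5% of all windows. The share of G and C ran from 49.7% in MNAT1 to 73.7% in GTF2H5, with a median of 58.7% over all windows. A match is a match of letters only, and nothing was measured at these promoters.

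The XG1 label and the RNA did not go together. In DMSO the 10 plasma cell markers summed to between 91.6 and 145 FPKM in the libraries labelled XG1, against 8363 to 9397 FPKM in AMO1, and IRF4, PRDM1, POU2AF1, CD38 and SLAMF7 averaged under 1 FPKM in the libraries labelled XG1. The 12 erythroid markers summed to between 4953 and 5355 FPKM there, against 159 to 190 FPKM in AMO1. Of these HBE1 went the other way, with a mean of 67.2 FPKM in XG1 and 106 FPKM in AMO1. The 6 myeloid markers summed to 121 to 147 FPKM against 0.622 to 1.41 FPKM, and the 6 T and NK cell markers to 40.4 to 58.8 FPKM against 3.46 to 5.17 FPKM. The myeloid sum came mostly from ITGAM, CD33 and LYZ, since CD14, CSF1R and MPO averaged under 1 FPKM in XG1. The T and NK cell sum was mostly CD7 in XG1 (mean 45.5 FPKM, against 0.0931 FPKM in AMO1). CD3E and NCAM1 averaged 0.130 and 0.273 FPKM in XG1, against 1.14 and 2.90 FPKM in AMO1. XG1 below therefore means the libraries labelled XG1. Summed over all genes, AMO1 libraries held 1442940 to 1553910 FPKM in DMSO, 919237 to 983439 FPKM at 100 nM and 431965 to 686266 FPKM at 1000 nM, where replicate 2 was the low library. XG1 libraries held 1221590 to 1425720, 994329 to 1146630 and 902520 to 1036930 FPKM at the same doses. The 92 spike-in RNAs summed to 166717 to 187657 FPKM in every library, so the deposited values appear to have been scaled to them. A change is therefore given on the deposited scale and also relative to the median gene of the same libraries. In bulk RNA, fewer cells of a type and less RNA per cell cannot be told apart.

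In AMO1 at 1000 nM, all 3 genes of the kinase module were lower than in DMSO, in a comparison where most other genes were lower too. CDK7, the catalytic subunit, had 15.4, 16.2 and 19.0 FPKM in the DMSO libraries, 11.6, 12.2 and 9.49 FPKM at 100 nM, and 8.05, 6.33 and 6.20 FPKM at 1000 nM. Each dose lay wholly under the one before it, with no overlap. Among all tested AMO1 genes 51.2% lay wholly under DMSO at 100 nM and 68.6% at 1000 nM. Between the doses, 48.1% lay wholly lower at 1000 nM than at 100 nM. At 1000 nM CDK7 averaged 6.86 ± 1.04 FPKM, against 16.9 ± 1.85 FPKM in DMSO (SD, n = 3 each), a log2 change of -1.19 (SE 0.19, limma with Benjamini-Hochberg adjusted p = 0.00011). MNAT1, which holds the kinase and cyclin together and ties them to ERCC2, had 13.5, 15.0 and 16.1 FPKM in DMSO, 9.90, 9.86 and 8.18 FPKM at 100 nM, and 10.4, 3.49 and 6.66 FPKM at 1000 nM. Its libraries at both doses lay under all DMSO libraries, and replicate 2 at 1000 nM was the lowest. Its log2 change at 1000 nM was -1.11 (SE 0.27, limma adjusted p = 0.0025). CCNH, the cyclin that activates CDK7, had 26.2, 23.6 and 24.7 FPKM in DMSO, 17.0, 16.0 and 15.8 FPKM at 100 nM, and 18.6, 8.28 and 15.1 FPKM at 1000 nM. Both doses lay under DMSO but overlapped each other, and the change at 1000 nM was -0.85 (SE 0.24, limma adjusted p = 0.0069). Leaving out any one library kept all 3 calls at 1000 nM, with CDK7 between -1.29 and -1.11. MNAT1 ranged from -1.43 to -0.76 and CCNH from -1.08 to -0.54 in those fits, the weaker end of each without replicate 2 at 1000 nM.

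Most tested genes were lower there too. At 1000 nM the median of all 10503 tested AMO1 genes was -0.77 on the deposited scale, and 65.7% of them were called lower. Of the members, 7 of the 9 that passed the filter on low values were called lower and none higher, against 2.51% of all genes called higher. Without replicate 2 at 1000 nM, the low library, 6 of the 9 were called, against 59.5% of all genes called lower. The median of the 9 was -0.85. On the relative scale CDK7 was at -0.29 (95% interval -0.68 to 0.10, limma adjusted p = 0.19), MNAT1 at -0.24 (-0.69 to 0.21, adjusted p = 0.35) and CCNH at 0.08 (-0.24 to 0.39, adjusted p = 0.68). These intervals do not show that the kinase module kept level with other genes, only that no departure passed the test. One library decided this for MNAT1: without replicate 1 at 1000 nM its relative change was -0.48 (limma adjusted p = 0.026).

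CDK7 overlaps CCDC125 in RefSeq, and CCNH overlaps RASA1 on the opposite strand. In AMO1 CCDC125 averaged 0.709 FPKM at 1000 nM and 1.05 FPKM in DMSO, and RASA1 2.81 and 3.27 FPKM, with no call on the deposited scale (limma adjusted p = 0.21 and 0.46). On the relative scale RASA1 was called higher (0.55, limma adjusted p = 0.021), as were 24% of all genes, and CCDC125 was at 0.14 (adjusted p = 0.49). Their part in the CDK7 and CCNH values was not tested.

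At 100 nM in AMO1, 3 members were called lower, against 29.5% of all tested genes, and 0 higher, against 2.73%. CDK7 averaged 11.1 ± 1.40 FPKM at 100 nM and 16.9 ± 1.85 FPKM in DMSO, a change of -0.57 (SE 0.19, limma adjusted p = 0.036). That call was lost when any one of the 6 libraries was left out (adjusted p 0.068 to 0.15). CCNH (-0.58, SE 0.24) and MNAT1 (-0.62, SE 0.27) did not pass. Relative to the median gene none of the 3 passed at 100 nM. There CDK7 was at -0.16 (limma adjusted p = 0.53), CCNH at -0.16 (adjusted p = 0.41) and MNAT1 at -0.22 (adjusted p = 0.45). Between the doses, 1000 nM against 100 nM, CDK7 was at -0.62 (SE 0.19, limma adjusted p = 0.035) and GTF2H4 at -0.61 (SE 0.20, adjusted p = 0.042), the 2 members called among 23.4% of all genes called lower. The CDK7 call was lost in 4 of 6 fits with a library left out and the GTF2H4 call in 5 of 6, and relative to the median gene neither passed (adjusted p = 0.70 and 0.56).

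**Figure D1:**
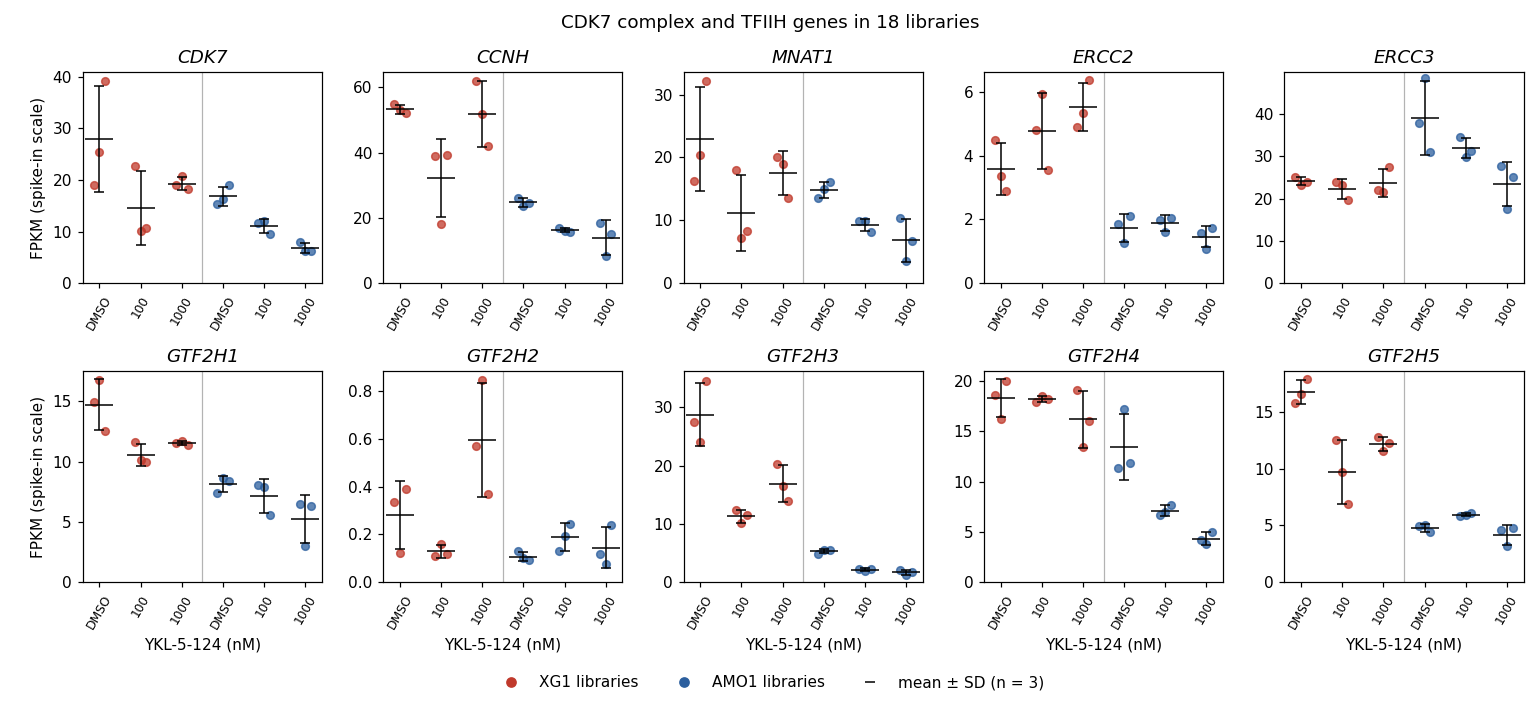
FPKM of each of the 10 genes (vertical axes from 0, one scale per gene) in the 18 libraries, by line and by dose of YKL-5-124 in nM; points are libraries, and black bars are the mean and SD of 3. CDK7 steps down with dose in AMO1, GTF2H3 and GTF2H5 are higher in every XG1 library than in every AMO1 library, and GTF2H2 stays under 1 FPKM in every library.

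In XG1 the 3 kinase module genes spread widely between replicates at 100 nM, as did CDK7 and MNAT1 in DMSO. No change in these 3 genes passed the test. CDK7 had 19.1, 25.5 and 39.3 FPKM in DMSO, 22.8, 10.1 and 10.7 FPKM at 100 nM, and 19.0, 20.7 and 18.2 FPKM at 1000 nM. The first library at 100 nM lay inside the DMSO range and the other two under it. MNAT1 had 16.3, 20.4 and 32.2 FPKM in DMSO, 18.1, 7.19 and 8.30 FPKM at 100 nM, and 20.1, 19.0 and 13.5 FPKM at 1000 nM. Like CDK7, it was highest in DMSO replicate 3 and lowest in 100 nM replicate 2. CCNH had 54.8, 53.1 and 52.1 FPKM in DMSO, 39.0, 18.3 and 39.2 FPKM at 100 nM, and 62.1, 51.9 and 41.9 FPKM at 1000 nM. Only 100 nM lay wholly under DMSO, as for 24.6% of all tested XG1 genes at that dose. At 100 nM the changes were -0.93 for CDK7 (SE 0.31, limma adjusted p = 0.068), -1.02 for MNAT1 (SE 0.33, adjusted p = 0.063) and -0.79 for CCNH (SE 0.26, adjusted p = 0.067). Without replicate 1 of that dose all 3 passed, with CDK7 at -1.28 (limma adjusted p = 0.0090), MNAT1 at -1.40 (adjusted p = 0.0088) and CCNH at -0.96 (adjusted p = 0.038). At 1000 nM the changes were -0.45 for CDK7 (95% interval -1.12 to 0.22), -0.33 for MNAT1 (-1.05 to 0.39) and -0.05 for CCNH (-0.62 to 0.51). On the relative scale none of the 3 passed at either dose, except CDK7 (-1.04, limma adjusted p = 0.027) and MNAT1 (-1.16, adjusted p = 0.024) at 100 nM without that replicate 1.

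CDK7 and MNAT1 tracked each other across libraries. After each line's mean was subtracted, Pearson's r of their log2 values over the 18 libraries was 0.93, the highest of 9647 genes, where the median gene had 0.58. Behind MNAT1 came EIF2A (0.93), ZNF680 (0.92), TRMT5 (0.92) and NHEJ1 (0.91). Relative to the median gene the order was PGBD2 (0.84), MNAT1 (0.83), EIF2A (0.83), DNAJC17 (0.81) and SCARNA20 (0.80), with a median of 0.01. Within XG1 alone r was 0.97 on the deposited scale and 0.96 on the relative scale, but in AMO1 it was 0.88, at rank 2856, and 0.33 on the relative scale. CCNH followed CDK7 less closely, at 0.73 and 0.48 over the 18 libraries. MNAT1 and CCNH were at 0.97 in AMO1 and 0.76 in XG1, and at 0.66 and 0.70 on the relative scale. These values describe libraries that share line, dose and scaling, and they carry no test.

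**Figure D2:**
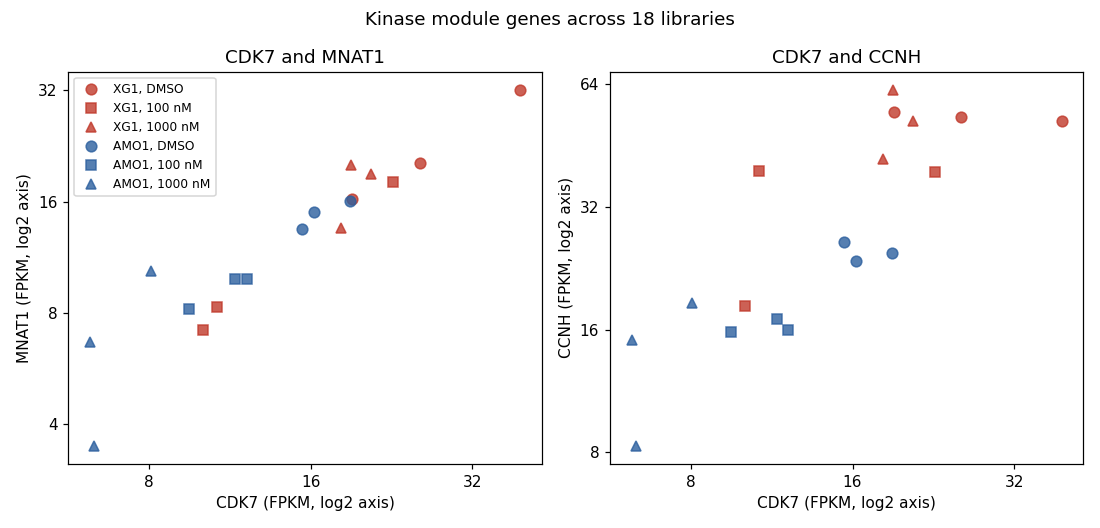
MNAT1 (left) and CCNH (right) against CDK7, both in FPKM on log2 axes; each point is 1 of 18 libraries, coloured by line and shaped by dose. MNAT1 follows CDK7 closely in XG1 (r = 0.97), while the CCNH points spread more (r = 0.65 in XG1).

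GTF2H3 (p34, the partner of GTF2H2 in the core) was the member lowered in both lines and at both doses. In AMO1 it had 4.90, 5.54 and 5.56 FPKM in DMSO, 2.31, 1.96 and 2.24 FPKM at 100 nM, and 2.11, 1.16 and 1.78 FPKM at 1000 nM. In XG1 it had 27.6, 24.1 and 34.6 FPKM in DMSO, 12.4, 10.1 and 11.5 FPKM at 100 nM, and 20.4, 16.5 and 13.9 FPKM at 1000 nM. Every treated library lay under every DMSO library of its line. Per dose, 51.2% and 68.6% of all tested genes did so in AMO1 at 100 and 1000 nM, and 24.6% and 30.1% in XG1. In XG1 the values at 100 nM lay under those at 1000 nM, as for 6.62% of all tested genes, though that difference did not pass (limma adjusted p = 0.36). In AMO1 GTF2H3 averaged 1.69 ± 0.483 FPKM at 1000 nM and 5.33 ± 0.376 FPKM in DMSO, a change of -1.25 (SE 0.19, limma adjusted p = 5.8e-05), and 2.17 ± 0.185 FPKM at 100 nM, a change of -0.999 (SE 0.19, adjusted p = 0.0015). In XG1 it averaged 11.3 ± 1.15 FPKM at 100 nM and 28.8 ± 5.35 FPKM in DMSO, a change of -1.26 (SE 0.19, limma adjusted p = 0.0029). XG1 at 1000 nM averaged 16.9 ± 3.23 FPKM, a change of -0.73 (SE 0.19, limma adjusted p = 0.023).

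GTF2H3 was also lower than the median gene would place it in all 4 comparisons. Its relative changes were -0.54 in AMO1 at 1000 nM (limma adjusted p = 0.0045), -0.64 in AMO1 at 100 nM (adjusted p = 0.0032), -1.07 in XG1 at 100 nM (adjusted p = 0.0037) and -0.55 in XG1 at 1000 nM (adjusted p = 0.038). In the first 3 of these the call held on both scales whichever library was left out. In XG1 at 1000 nM leaving out DMSO replicate 1 or 3, or 1000 nM replicate 2 or 3, ended the call on the deposited scale (adjusted p 0.066 to 0.10). The same libraries and DMSO replicate 2 each ended it on the relative scale (adjusted p 0.067 to 0.13). On that scale 10.3% of all genes were called lower in XG1 at 1000 nM and 7.25% at 100 nM, against 24.2% and 17.1% in AMO1 at these doses. GTF2H3 overlaps EIF2B1, a subunit of a translation initiation factor, on the opposite strand, and the sources used here do not say whether the counting used strand. In AMO1 EIF2B1 averaged 27.7 FPKM in DMSO, 19.6 FPKM at 100 nM (log2 change -0.48, limma adjusted p = 0.14) and 13.2 FPKM at 1000 nM (-1.06, adjusted p = 0.0015). In XG1 it averaged 66.7 FPKM in DMSO, 54.9 FPKM at 100 nM (-0.30, limma adjusted p = 0.30) and 65.2 FPKM at 1000 nM (-0.03, adjusted p = 0.93). Its part in the GTF2H3 values was not tested.

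GTF2H4 (p52, which anchors ERCC3 and stimulates its ATPase) was lowered in AMO1 and gave no call in XG1. In AMO1 it had 11.3, 17.3 and 11.9 FPKM in DMSO, 6.68, 7.02 and 7.70 FPKM at 100 nM, and 4.19, 3.79 and 5.02 FPKM at 1000 nM. The 3 doses did not overlap, where 51.2% of all tested genes lay wholly under DMSO at 100 nM. Between 100 nM and 1000 nM that share was 48.1%. At 1000 nM GTF2H4 averaged 4.33 ± 0.626 FPKM and in DMSO 13.5 ± 3.28 FPKM, a change of -1.43 (SE 0.20, limma adjusted p = 3.8e-05), and no library left out ended that call. Set against the median gene the change was -0.56 (SE 0.14, limma adjusted p = 0.0076). At 100 nM the change on the deposited scale was -0.81 (SE 0.20, limma adjusted p = 0.0080), with an adjusted p of 0.052 without DMSO replicate 2. The relative change there of -0.41 (limma adjusted p = 0.048) was lost without any one of the 6 libraries. In XG1 the libraries had 18.6, 16.3 and 20.1 FPKM in DMSO, 17.96, 18.5 and 18.3 FPKM at 100 nM, and 19.2, 13.4 and 16.0 FPKM at 1000 nM, all overlapping. Its XG1 changes were -0.18 at 1000 nM (95% interval -0.54 to 0.19) and 0.00 at 100 nM (-0.37 to 0.37).

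GTF2H4 shares its 3′ end with its neighbour VARS2, a mitochondrial tRNA synthetase. The 2 genes overlap on the same strand in GENCODE, and all 451 distinct 50-base stretches at the 3′ ends of GTF2H4 coding transcripts also stand in VARS2 transcripts. VARS2 averaged 1.79 FPKM at 1000 nM and 4.15 FPKM in DMSO in AMO1 (log2 change -0.89, SE 0.23, limma adjusted p = 0.0034), and 10.0 and 9.58 FPKM in XG1 (0.05, SE 0.23, adjusted p = 0.91). The sources used here do not say how reads were divided between these genes, so the part of VARS2 in the GTF2H4 values was not tested.

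GTF2H5 (p8, the small subunit that stabilises the core and is mutated in a form of trichothiodystrophy) gave no call on the deposited scale in AMO1, where most RNA was lower. It had 4.94, 5.03 and 4.41 FPKM in DMSO, 5.83, 5.89 and 6.09 FPKM at 100 nM, and 4.56, 3.19 and 4.77 FPKM at 1000 nM. The 100 nM libraries lay over both other groups, and those at 1000 nM overlapped DMSO. At 100 nM 5.90% of all tested genes lay wholly over DMSO. The changes were -0.17 at 1000 nM (95% interval -0.57 to 0.22) and 0.26 at 100 nM (-0.13 to 0.65). Relative to the median gene GTF2H5 rose by 0.62 at 1000 nM (SE 0.10, limma adjusted p = 0.00062) and by 0.61 at 100 nM (SE 0.10, adjusted p = 0.0013), in every fit with a library left out. In these relative tests 24% of all genes were called higher at 1000 nM and 14% at 100 nM.

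In XG1 GTF2H5 had 15.8, 16.6 and 17.9 FPKM in DMSO, 12.5, 9.73 and 6.93 FPKM at 100 nM, and 12.8, 11.5 and 12.3 FPKM at 1000 nM. Both doses lay under DMSO, as did 24.6% of all tested genes at 100 nM and 30.1% at 1000 nM. At 100 nM it averaged 9.73 ± 2.80 FPKM, against 16.8 ± 1.06 FPKM in DMSO, a change of -0.76 (SE 0.20, limma adjusted p = 0.033) and of -0.58 relative to the median gene (SE 0.14, adjusted p = 0.024). Both calls were lost without any one DMSO library or without 100 nM replicate 2 or 3, with adjusted p from 0.055 to 0.12 on the deposited scale and 0.054 to 0.090 on the relative scale. At 1000 nM the change was -0.43 (SE 0.20) and did not pass (limma adjusted p = 0.17). In XG1 the 2 members called at 100 nM (GTF2H3 and GTF2H5) stand against 10% of all 11810 tested genes called lower, and the 1 at 1000 nM (GTF2H3) against 13.2%. At 100 nM the count was 5 without replicate 1 of that dose, against 14% of all genes called lower in that fit, and 1 when any single other library of the comparison was left out. The median of the 9 members in XG1 was -0.76 at 100 nM and -0.32 at 1000 nM, where all tested genes had -0.15 at each dose.

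ERCC3 (XPB), which opens promoter DNA, was lower at 1000 nM in AMO1, where most genes were. It had 37.7, 48.3 and 31.1 FPKM in DMSO, 34.4, 29.8 and 31.3 FPKM at 100 nM, and 27.6, 17.6 and 25.0 FPKM at 1000 nM. Only the 1000 nM libraries lay wholly under DMSO. The change at 1000 nM was -0.72 (SE 0.22, limma adjusted p = 0.011), lost without DMSO replicate 2 (adjusted p = 0.072), and relative to the median gene it was 0.23 (95% interval -0.03 to 0.50). In XG1 ERCC3 lay between 19.6 and 27.4 FPKM in all 9 libraries, with changes of -0.03 at 1000 nM (95% interval -0.37 to 0.31) and -0.11 at 100 nM (-0.45 to 0.23).

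ERCC2 (XPD), the iron-sulfur helicase that opens damaged DNA in repair and holds the kinase module, was a low gene that gave no call against DMSO on the deposited scale. It had 1.85, 1.25 and 2.10 FPKM in AMO1 in DMSO, 1.99, 1.59 and 2.05 FPKM at 100 nM, and 1.58, 1.08 and 1.73 FPKM at 1000 nM. In XG1 it had 4.49, 3.36 and 2.89 FPKM, 4.79, 5.94 and 3.56 FPKM, and 4.90, 5.33 and 6.36 FPKM at the same doses. In AMO1 the groups overlapped, and in XG1 the 1000 nM libraries lay over DMSO, as for 11.5% of all tested genes. The log2 change at 1000 nM was -0.15 in AMO1 (SE 0.19) and 0.52 in XG1 (SE 0.23, limma adjusted p = 0.15). On the relative scale it was 0.44 in AMO1 (SE 0.16, limma adjusted p = 0.041) and 0.67 in XG1 (SE 0.20, adjusted p = 0.042). These calls were lost in 5 of 6 fits in AMO1 and 4 of 6 in XG1 with a library left out (adjusted p up to 0.15 and 0.14). Among all genes 24% were called higher on that scale in AMO1 at 1000 nM and 9.57% in XG1 at 1000 nM. Pseudocount and low level make such changes understate a fold. ERCC2 overlaps KLC3 on the opposite strand. KLC3 averaged 0.188 FPKM in DMSO, 0.788 FPKM at 100 nM and 0.489 FPKM at 1000 nM in XG1. In AMO1 it averaged 0.477, 0.424 and 0.291 FPKM. Its part in the ERCC2 values was not tested.

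GTF2H1 (p62), which contacts TFIIE and repair proteins, had 7.39, 8.62 and 8.41 FPKM in AMO1 in DMSO, 8.07, 7.89 and 5.55 FPKM at 100 nM, and 6.44, 2.96 and 6.28 FPKM at 1000 nM. The last group lay under DMSO, mostly through replicate 2. Its change of -0.61 (SE 0.24, limma adjusted p = 0.040) was -0.31 without that library (adjusted p = 0.14), and the call was also lost without DMSO replicate 2 (0.096) or 3 (0.082). Set against the median gene it was 0.23 (95% interval -0.15 to 0.60). In XG1 GTF2H1 averaged 14.7 ± 2.11 FPKM in DMSO, 10.5 ± 0.900 FPKM at 100 nM and 11.5 ± 0.157 FPKM at 1000 nM. Both doses lay under DMSO, but neither change passed (-0.44, SE 0.17, limma adjusted p = 0.11, and -0.32, SE 0.17, adjusted p = 0.23).

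GTF2H2 (p44), which regulates the helicase ERCC2, could not be read. It lay between 0.0741 and 0.845 FPKM in the 18 libraries, under the 1 FPKM filter in each, and was not tested. The gene has near-identical copies in the same region of chromosome 5, and GTF2H2B, GTF2H2C and GTF2H2C_2 also averaged under 1 FPKM in every group. Of 1706 distinct 50-base stretches at the 3′ ends of its coding transcripts, 93.9% also stood in transcripts of other genes, and 65.1% in those of GTF2H2C. The promoter windows of GTF2H2 and GTF2H2C share 268 of 270 overlapping bases. A low value here says nothing of whether the gene was used.

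**Figure D3:**
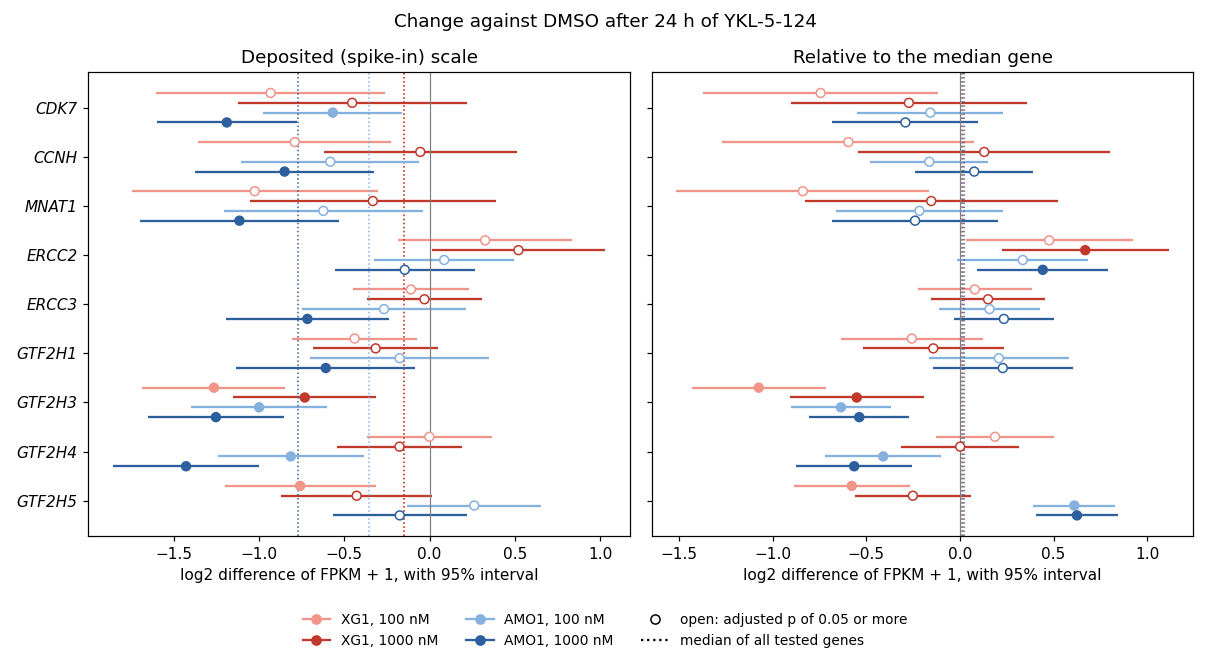
Log2 differences of FPKM + 1 against DMSO for the 9 tested genes with 95% intervals, on the deposited scale (left) and relative to the median gene (right); filled points passed an adjusted p of 0.05, and dotted lines are the medians of all tested genes. GTF2H3 is filled in all 4 comparisons on both scales, and GTF2H5 lies right of 0 in AMO1 and left of 0 in XG1 on the relative scale.

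The lines also differed in these genes in DMSO, where 7 members were called higher in XG1 than in AMO1 and 1 lower, against 45% and 19.8% of 12792 tested genes. GTF2H3 averaged 28.8 ± 5.35 FPKM in XG1 and 5.33 ± 0.376 FPKM in AMO1, a log2 difference of 2.22 (SE 0.18, limma adjusted p = 8.4e-09). GTF2H5 averaged 16.8 ± 1.06 FPKM in XG1 and 4.79 ± 0.331 FPKM in AMO1, a difference of 1.62 (SE 0.18, limma adjusted p = 4.5e-07). CCNH was 1.08 higher (SE 0.27, limma adjusted p = 0.0021), GTF2H1 0.78 higher (SE 0.21, adjusted p = 0.0038) and ERCC2 0.74 higher (SE 0.19, adjusted p = 0.0030). ERCC3 went the other way, with 24.0 ± 0.946 FPKM in XG1 and 39.0 ± 8.71 FPKM in AMO1, a difference of -0.66 (SE 0.18, limma adjusted p = 0.0044). On the relative scale these 6 differences were 1.90, 1.30, 0.77, 0.48, 0.48 and -0.95 and passed, with 5 members higher against 38.3% of all genes and 1 lower against 28%. The relative calls of CCNH, GTF2H1 and ERCC2 were lost without single libraries: CCNH without AMO1 replicate 2 (adjusted p = 0.053), ERCC2 without XG1 replicate 1 or 2 or AMO1 replicate 2 (0.055 to 0.13), and GTF2H1 without either of those XG1 libraries or AMO1 replicate 1 or 2 (0.051 to 0.11).

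CDK7 itself was called higher in XG1 in DMSO, but the call did not hold without single libraries. It averaged 28.0 ± 10.3 FPKM in XG1 and 16.9 ± 1.85 FPKM in AMO1, a difference of 0.64 (SE 0.26, limma adjusted p = 0.041) that was lost without XG1 replicate 2 or 3, or AMO1 replicate 1 or 2 (adjusted p 0.064 to 0.24). Set against the median gene it was 0.34 (95% interval -0.19 to 0.86). MNAT1 was at 0.54 (SE 0.33) and did not pass. GTF2H4 was at 0.43 (SE 0.17, limma adjusted p = 0.034), lost in 4 of 6 fits with a library left out (adjusted p up to 0.15), and at 0.14 on the relative scale (adjusted p = 0.40). The erythroid, myeloid and plasma marker sums above differ between the same libraries, and their part in these differences was not tested.

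On the deposited scale the response to the compound was called different between the lines for GTF2H4 and ERCC3 at 1000 nM and for GTF2H5 at 100 nM, and on the relative scale for GTF2H5 alone, at both doses. At 1000 nM the GTF2H4 response, XG1 minus AMO1, was 1.25 (SE 0.24, limma adjusted p = 0.0012), called whichever of the 12 libraries was left out. Part of the difference was shared with other genes: the median over all tested genes was 0.55, and 32.8% were called higher in XG1, against 2 of the members. GTF2H4 on the relative scale was at 0.54 (SE 0.20, limma adjusted p = 0.074). It passed there only without XG1 1000 nM replicate 2 (0.64, adjusted p = 0.045) or AMO1 1000 nM replicate 2 (0.66, adjusted p = 0.040). VARS2, its overlapping neighbour, gave 0.94 on the deposited scale (SE 0.33, limma adjusted p = 0.034) and 0.40 on the relative scale. The other member called, ERCC3, was at 0.69 (SE 0.26, limma adjusted p = 0.047), lost in 9 of 12 fits with a library left out (adjusted p up to 0.14) and -0.13 relative to the median gene.

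For GTF2H5 the difference lay the other way, since its response was lower in XG1. At 100 nM it was -1.02 on the deposited scale (SE 0.25, limma adjusted p = 0.022), the 1 member called lower there against 0.86% of all genes. That call was lost without AMO1 DMSO replicate 3 (adjusted p = 0.057) or AMO1 100 nM replicate 2 (0.051). Relative to the median gene the difference was -1.22 at 100 nM (SE 0.15, limma adjusted p = 0.00012) and -0.93 at 1000 nM (SE 0.15, adjusted p = 0.00054), and both relative calls held whichever library was left out. In those relative tests 3.63% of all genes were called lower at 100 nM and 8.21% at 1000 nM. On the deposited scale the 1000 nM difference was -0.25 (95% interval -0.78 to 0.28). For the kinase module no difference in response passed at either dose, with wide intervals: CDK7 was at 0.73 at 1000 nM (-0.05 to 1.52) and -0.36 at 100 nM (-1.15 to 0.42).

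**Figure D4:**
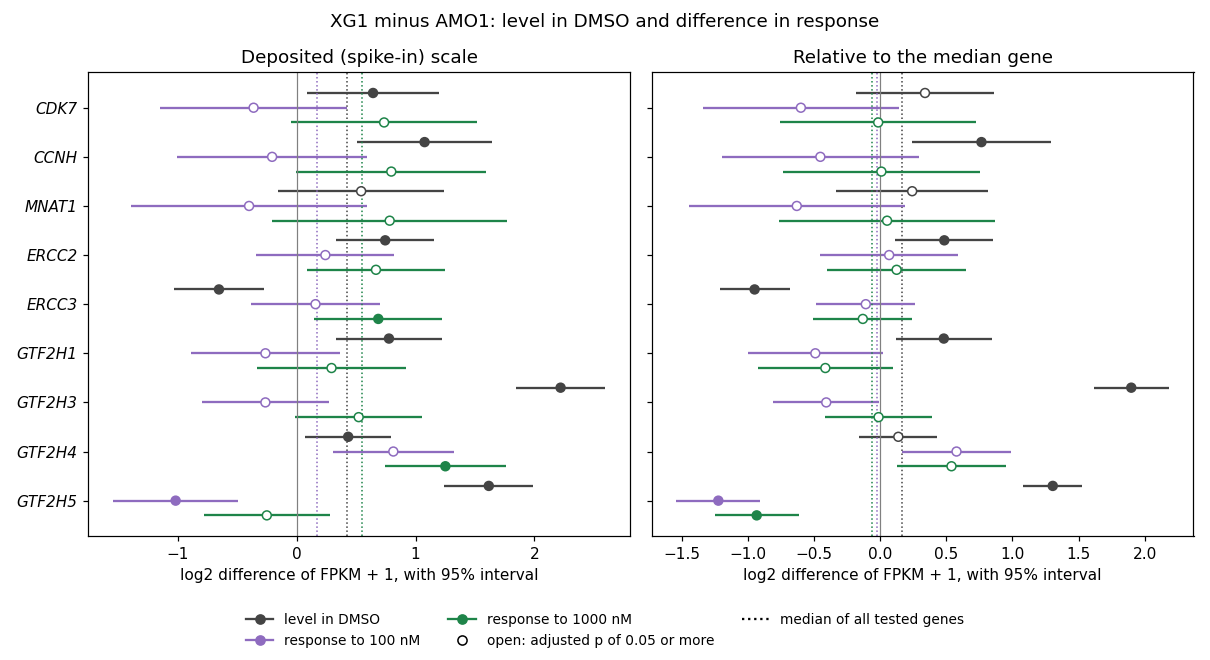
XG1 minus AMO1 as log2 differences of FPKM + 1 with 95% intervals, for the level in DMSO and for the response to each dose, on the deposited scale (left) and relative to the median gene (right); filled points passed an adjusted p of 0.05. GTF2H3 (2.22) and GTF2H5 (1.62) have the largest level differences, and the GTF2H5 responses lie left of 0.

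Between the 2 doses in XG1 no member was called (limma, 1000 nM against 100 nM), against 0.39% of all genes called in either direction. An unadjusted p under 0.05 was found for 2 of 9 members, against 1255 of 11810 tested genes. The 2 members were CCNH (0.74, SE 0.26, adjusted p = 0.34) and GTF2H3 (0.53, SE 0.19, adjusted p = 0.36), both higher at 1000 nM. DESeq2 and edgeR need counts and were not run.

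Many genes that work with TFIIH were also lower in AMO1, where 65.7% of all genes were called lower at 1000 nM and 29.5% at 100 nM. Of the kinases that CDK7 activates, 5 of 7 were called lower at 1000 nM and 4 of 7 at 100 nM. CDK1, which drives mitosis, averaged 5.03 FPKM at 1000 nM and 106 FPKM in DMSO (log2 change -4.16, limma adjusted p = 4.2e-09), and CDK2, the S phase kinase, 16.9 and 132 FPKM (-2.93, adjusted p = 1.2e-07). The G1 kinases CDK4 and CDK6 changed by -1.84 and -1.56. These 4 were also called lower relative to the median gene, from -3.27 for CDK1 to -0.76 for CDK6, against 24.2% of all genes. The members' lowest value on that scale was -0.56. CDK9, CDK13 and CDK12 lay the other way there, at 0.37, 0.28 and 0.22, and gave no call (limma). In XG1, 3 of the 7 kinases were called lower at 1000 nM, against 13.2% of all genes, and 2 at 100 nM, against 10%, counts that dropped to 1 and to 0 or 1 in 5 of 6 fits with a library left out. CDK1 averaged 97.1 FPKM at 1000 nM and 237 FPKM in DMSO there (-1.28, limma adjusted p = 0.00033).

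Of 15 tested partners in nucleotide excision repair, 9 were called lower in AMO1 at 1000 nM and 5 at 100 nM, against the same 65.7% and 29.5% of all genes, with a median of -0.94 at 1000 nM. Among those with the lowest adjusted p were RPA2 and RPA1, which bind single-stranded DNA (-2.14 and -1.72), and DDB2, which recognises ultraviolet damage (-1.44). On the relative scale 6 of the 15 were called lower and 4 higher, against 24.2% and 24% of all genes. In XG1, 2 of 16 were called lower at 1000 nM, near the 13.2% of all genes, and 3 at 100 nM, against 10%, the second count dropping to 1 without DMSO replicate 1 or 3 or 100 nM replicate 2. TFIIE brings TFIIH to the promoter, and its subunit GTF2E1 fell in AMO1 at 1000 nM (-0.95, limma adjusted p = 0.00094), while GTF2E2 was at -0.49 (adjusted p = 0.056). On the relative scale GTF2E1 was at -0.23 and did not pass (limma adjusted p = 0.23). GTF2E2 was called higher on that scale, at 0.47 (limma adjusted p = 0.0030), as were 24% of all genes. Of 4 genes that load iron and sulfur into ERCC2, 3 were called lower in AMO1 at 1000 nM: FAM96B (-1.10), MMS19 (-1.06) and CIAO1 (-0.78). None of these 4 passed on the relative scale. On that scale none had an unadjusted p under 0.05 either (limma), against 5764 of 10503 tested genes.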

How the data were processed

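Libraries were QuantSeq 3′ messenger RNA libraries made from total RNA, per the labels' protocols. Per the submitters' processing notes, the authors aligned reads with HISAT2 to hg19 and made the deposited FPKM with Cuffnorm, whose versions the sources used here do not give. FPKM divides by gene length although a 3′ library reads 1 end, so no test compared levels of different genes. Sums over genes, and the calling of a gene low, do weigh such levels and carry this limit. No zeros, counts or depths were in the files, so counting error is unknown and precision rests on 3 replicates. Scaling to the spike-ins is inferred from their level sums. A gene entered a fit where 3 or more of its libraries reached 1 FPKM, and log2(FPKM + 1) was tested with limma 3.58.1 in R 4.3.3 (trended prior variance, two-sided, Benjamini-Hochberg adjusted p under 0.05 over all tested genes); jsonlite 2.0.0 read the sample records. Each line's 9 libraries were fitted together, and all 18 for comparisons across lines. The relative scale divides by median-ratio size factors. The fit was tested only on simulated data with independent noise and planted changes. Those data lacked the general fall in RNA and the low AMO1 library, so the test does not cover these. The named genes were all 10 members, the 4 genes of each other list with the smallest adjusted p in AMO1 at 1000 nM, and the 5 genes most like CDK7. Overlapping neighbours, the kinases CDK9, CDK12 and CDK13, and the single cell type markers named were chosen after their values were seen. Members and lists were chosen with earlier results of these data known. Promoters and overlaps came from RefSeq and GENCODE on GRCh38, not hg19, and no coordinates were moved between builds. With 3 against 3 libraries an exact permutation test of 1 gene cannot go below p = 0.1, so none is given.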

Additional observations from a re-analysis of the deposited data

Results flagged for a closer look

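The lines responded differently by a test of the difference itself (XG1 minus AMO1, limma, adjusted over all genes) in 3 of the 9 tested members. GTF2H4 was at 1.25 at 1000 nM on the deposited scale, where 32.8% of all genes were called higher, but at 0.54 on the relative scale it did not pass (adjusted p = 0.074). ERCC3 was at 0.69 on the deposited scale at 1000 nM, a call lost in 9 of 12 fits with a library left out, and the relative scale turned it to -0.13. GTF2H5 was at -1.02 at 100 nM on the deposited scale, where 0.86% of all genes were called lower, and that call was lost without AMO1 DMSO replicate 3 or AMO1 100 nM replicate 2. On the relative scale GTF2H5 was at -1.22 at 100 nM and -0.93 at 1000 nM, where 3.63% and 8.21% of all genes were called lower, and these calls held whichever library was left out. The lines also differ in their cell type markers, whose part in these differences was not tested.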

How the results depend on the processing

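Counts of members called were compared with those of the reported fits, which gave 7 for AMO1 at 1000 nM, 3 for AMO1 at 100 nM, 2 between the AMO1 doses, 1 for XG1 at 1000 nM and 2 at 100 nM, all lower. The share of all genes called the same way in the same fit stands in parentheses. The relative scale gave 4 for AMO1 at 1000 nM, 2 lower (24.2%) and 2 higher (24%). For AMO1 at 100 nM it gave 2 lower (17.1%) and 1 higher (14%), with CDK7 not called and GTF2H5 called higher. Between the AMO1 doses it gave 0 (5.97% either way). At an unadjusted p under 0.05 (limma) there were 0 members there too, against 2352 of 10503 tested genes. It gave 2 for XG1 at 1000 nM, 1 lower (10.3%) and 1 higher (9.57%), and 1 lower for the response difference at 1000 nM (8.21%). On that scale several AMO1 changes at 1000 nM turned positive: CCNH 0.076, ERCC2 0.44, ERCC3 0.23, GTF2H1 0.23 and GTF2H5 0.62. The ERCC3 response difference at 1000 nM turned to -0.13. With no filter on low values, which tests more genes, limma gave 0 between the AMO1 doses (1.98% either way), 0 for XG1 at 1000 nM (4.39% either way), 1 lower for XG1 at 100 nM (2.09%) and 1 higher for the response difference at 1000 nM (12.6%). A constant prior variance gave 1 higher for that difference (32.6%). Fitting only the groups compared gave 5 lower for AMO1 at 100 nM (44.9%), 0 between the AMO1 doses (13.8% either way), 2 lower for XG1 at 1000 nM (19.5%), 1 lower at 100 nM (7.79%), 1 higher for the response difference at 1000 nM (33.6%), and at 100 nM 2, of which 1 was higher (8.68%) and 1 lower (1.01%). The replicate block gave 0 between the AMO1 doses (13.9% either way), 1 lower for XG1 at 100 nM (8.54%), 1 higher for the response difference at 1000 nM (28.2%) and 0 at 100 nM (4.01% either way). Same-numbered libraries' deviations from their group means correlated between -0.18 and 0.12 in AMO1 and between -0.04 and 0.16 in XG1. Differently numbered ones ran from -0.17 to 0.17 in AMO1 and from -0.14 to 0.09 in XG1. Deviations from a mean of 3 libraries cannot settle whether the numbers pair the libraries. A pseudocount of 0.1 FPKM left every count of members within 1.5 times. The other causes of these shifts were not tested.

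Leaving out 1 library gave 5 to 7 calls for AMO1 at 1000 nM, 1 to 2 at 100 nM, 0 to 2 between the doses, 0 to 1 for XG1 at 1000 nM, 1 to 5 at 100 nM (5 without 100 nM replicate 1), 0 between the XG1 doses, 6 to 7 between the lines in DMSO, 1 to 3 for the response difference at 1000 nM and 0 to 1 at 100 nM. The relative-scale fits with a library left out were added after the data were seen. Depth is unknown, so low genes such as ERCC2 and GTF2H2 are read with least certainty, and 3 replicates cannot show small changes.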
